A study of Mus musculus with 5 samples.

Results

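The clustered histone genes are the 63 genes of the deposited count table, out of 18767 in all, whose symbol starts with Hist1h, Hist2h, Hist3h or Hist4h. They were chosen by symbol alone. They encode the H1 linker histones (6 genes) and the core histones H2A (17 genes), H2B (16 genes), H3 (12 genes) and H4 (12 genes). Of the 63, 50 lie in the Hist1 gene cluster, 10 in Hist2, 2 in Hist3 and 1 in Hist4.

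The study profiled single CD45+ live immune cells, sorted from the collagenase-digested thyroids of perfused NOD.WT mice of both sexes aged 4 to 6 weeks at the start. The mice were injected intraperitoneally on a twice-weekly schedule over 4 weeks, either with anti-PD-1 (clone RPM1-14) together with anti-CTLA-4 (clone 9D9), called immune checkpoint inhibition or ICI here (16 mice, 10 mg/kg per dose), or with isotype control antibodies (clones 2A3 and MPC11; 10 mice). Both arms were made in the same strain, which is prone to autoimmunity, and mice were pooled into 4 ICI libraries and 1 isotype library of 10x 5′ sequencing of polyA RNA. The labels give neither the number of mice in each library nor whether ICI 1, ICI 2 and ICI 3, whose names share a stem, came from separate mice.

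Histones package DNA: pairs of H2A, H2B, H3 and H4 form the nucleosome core, and H1 binds the linker DNA between cores. The clustered genes are mostly intronless and are transcribed mainly while DNA is replicated, when new chromatin needs new histone. Their mRNAs typically end in a conserved stem-loop, bound by the protein SLBP, in place of a poly(A) tail. Some of these genes also make polyadenylated mRNA outside replication, and genes elsewhere in the genome encode replacement histones that are made through the whole cell cycle.

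In the GENCODE M21 models (build GRCm38, which the submitters' notes call mm10), all 63 genes were protein coding. The 16-base stem-loop, searched as arms that pair perfectly, starting with GG and ending with CC around a short T-rich loop, was found in the annotated transcripts of 45 of them and not in those of the other 18. Several of these 18 models are short, with 312 bases in Hist1h4k, 381 in Hist1h2bl and 393 in Hist1h2ak. A stem-loop beyond the end of a model could not be found, so these genes need not lack it. The sequence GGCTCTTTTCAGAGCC was used by 26 genes, and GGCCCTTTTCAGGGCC and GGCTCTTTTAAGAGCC by 6 each. In 17 genes the model runs on past the stem-loop to a poly(A) signal, searched as the letters AATAAA or ATTAAA. The search covered any distance after the stem-loop, so longer models had more room for a match. The stretches below show the stem-loop, in capitals, of genes whose response to the cell cycle is described later: the H2B genes Hist1h2bm and Hist1h2bj had among the largest differences between phases, and the linker gene Hist1h1c, the H4 gene Hist1h4i and the H2B gene Hist3h2ba, whose models all continue to a poly(A) signal, had small ones.
Hist1h2bm (chr13:21722501-21722530, plus strand): acaaaGGCTCTTTTCAGAGCCactaagcag
Hist1h2bj (chr13:22043633-22043662, plus strand): ccaaaGGCTCTTTTCAGAGCCacgcacaat
Hist1h1c (chr13:23739507-23739536, plus strand): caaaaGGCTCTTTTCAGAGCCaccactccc
Hist1h4i (chr13:22040957-22040986, minus strand): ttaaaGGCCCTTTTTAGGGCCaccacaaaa
Hist3h2ba (chr11:58949344-58949373, plus strand): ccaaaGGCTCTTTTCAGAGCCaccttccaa
The stem-loop letters are identical in Hist1h2bm, Hist1h2bj, Hist1h1c and Hist3h2ba, so genes with the largest and the smallest phase differences carried the same 16 bases. They differ in what follows: the model ends 46 and 23 bases after the stem-loop in Hist1h2bm and Hist1h2bj, and 840, 330 and 169 bases after it in Hist1h1c, Hist1h4i and Hist3h2ba. The genes shown were picked by their phase differences, and others went the other way. Hist1h2ac, with 2010 bases after the stem-loop, had a log2 fold change of 2.90 between S and G1, and Hist1h4n, with 31, had 0.77. Values over all tested genes are given below.

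Promoters could be matched for 58 of the 63 genes in RefSeq (GRCm38.p6; 250 bases before to 50 after the start, 300 in all). Each motif was searched as exact letters on both strands. CCAAT was present in 86.2% of the histone promoters and in 37.4% of all 32851 promoters of this length, TATAAA in 55.2% and 13.6%, the octamer ATTTGCAT in 19.0% and 1.74%, and AAACACA, known as the H1 box, in 12.1% and 7.18%. The families differed: the octamer was found in 6 of 17 H2A and 5 of 14 H2B promoters and in none of the H1, H3 and H4 promoters, the H1 box in 5 of 6 H1 promoters, and CCAAT in 3 of 11 H4 promoters but in every matched promoter of the other families. The stretches below are the 100 bases before the start of genes whose levels differ most in pattern, with these motifs in capitals in either orientation; a match is a description of letters and not a measured binding site.
Hist1h1a (chr13:23763568-23763667, plus strand): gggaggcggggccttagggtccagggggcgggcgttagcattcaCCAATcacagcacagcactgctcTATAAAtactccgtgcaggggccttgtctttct
Hist1h1c (chr13:23738707-23738806, plus strand): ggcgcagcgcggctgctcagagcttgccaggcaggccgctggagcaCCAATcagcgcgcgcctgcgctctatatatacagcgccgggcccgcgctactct
Hist1h2bm (chr13:21721944-21722043, plus strand): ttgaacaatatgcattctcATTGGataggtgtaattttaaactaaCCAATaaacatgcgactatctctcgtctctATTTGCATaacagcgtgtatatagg
Hist3h2ba (chr11:58948811-58948910, plus strand): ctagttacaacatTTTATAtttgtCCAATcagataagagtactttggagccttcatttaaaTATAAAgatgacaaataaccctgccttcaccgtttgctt
Hist1h4i (chr13:22041363-22041462, minus strand): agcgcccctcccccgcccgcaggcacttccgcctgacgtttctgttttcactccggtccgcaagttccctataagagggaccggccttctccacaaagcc
Hist1h1a and Hist1h1c, both linker genes with a CCAAT box in this window, differed widely in their phase pattern, and Hist1h4i held none of the motifs in it.

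Each value below counts UMIs, that is, captured mRNA molecules, and CPM (counts scaled to a common library total) sets a gene's UMIs against all UMIs of the same library or group of cells. The 5 libraries held 10275 cells and between 3858251 and 32296759 UMIs each, with medians of 1753 to 4321 UMIs per cell. ICI 1, ICI 2 and ICI 3 stood apart from ICI 4 and isotype. Ptprc, which encodes CD45, had a UMI in every cell of ICI 4 and isotype but in 92.3%, 84.2% and 82.1% of the cells of ICI 1 to 3. Genes seen in only 1 or 2 cells numbered 195, 42 and 38 in ICI 1 to 3 against 1314 and 1740 in ICI 4 and isotype, and 13, 12 and 12 histone genes stand in the table after the last row in which ICI 1, ICI 2 and ICI 3 have any UMI. A 0 in those libraries may therefore mean a gene that was not listed. ICI 2 and ICI 3 shared 140 cell barcodes, and other pairs of libraries shared 0 to 12.

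Clustered histone genes gave 148271 UMIs. Over all cells they made up 0.0470%, 0.0420%, 0.0503% and 0.334% of the UMIs of ICI 1 to 4 and 0.426% of those of isotype. ICI 4 and isotype thus had levels many times those of the other libraries, and the isotype library lay above all 4 ICI libraries. The number of histone genes without a UMI was 13, 21, 21, 0 and 2 in the same order.

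The linker histones had the largest share of the captured histone UMIs in every library. The libraries hold polyA RNA, while mRNAs of clustered genes typically end in a stem-loop. Shares of UMIs therefore need not follow shares of histone mRNA. With all libraries summed, where ICI 4 supplied 107712 of the UMIs, the 6 H1 genes held 58.8% of all histone UMIs, the H2A genes 15.4%, the H4 genes 13.4%, the H2B genes 8.89% and the H3 genes 3.53%. The H1 share was 49.1%, 35.6%, 35.6%, 60.2% and 57.6% in ICI 1 to 4 and isotype, and the order below it differed: the H4 genes came second in ICI 2, at 25.6%, and in ICI 3, above the H2A genes at 20.4% and 21.3%, and the H2B genes came second in ICI 1, at 18.7%. The 5 most abundant genes held 59.7% of the histone UMIs and the 12 most abundant 85.6%, while 7 genes had fewer than 20 UMIs in all cells together, among them the testis linker gene Hist1h1t with 10. Set against the length of the annotated transcript, the linker gene Hist1h1b stood first with 30887 UMIs per kilobase, followed by the H2A gene Hist1h2ap with 20436 and the linker gene Hist1h1a with 20266. Counts from the transcript's 5′ end depend little on length, so this scale is only a guide.

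Among the linker genes, Hist1h1e was detected at 70.6, 58.6, 74.4 and 638 CPM in ICI 1 to 4 and at 771 CPM in isotype. Hist1h1b stood at 62.7, 13.7, 13.0 and 534 CPM in ICI 1 to 4 and at 655 CPM in isotype. For Hist1h1a the values were 32.3, 1.04, 4.79 and 361 CPM, with 392 CPM in isotype. All of these genes were high in ICI 4 and isotype and low in ICI 1 to 3, but by different amounts. Hist1h1c, which is known to be expressed in resting as well as dividing cells, had 38.1, 49.5, 55.2 and 271 CPM in ICI 1 to 4 and 354 CPM in isotype, a smaller gap than that of Hist1h1a.

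The core histone genes with most UMIs were the H4 gene Hist1h4d and the H2A gene Hist1h2ap. Hist1h4d was detected at 9.93, 20.99, 38.8 and 234 CPM in ICI 1 to 4 and at 336 CPM in isotype. Hist1h2ap stood at 9.25, 29.3, 38.4 and 230 CPM, and at 259 CPM in isotype. The most abundant H2B gene, Hist2h2bb, shares 52.2% of its 60-base stretches with the unnamed gene model Gm42743, so its reads may be split with it. Its exons also overlap Gm20628 in position, but the 2 share no such stretch. The most abundant H3 gene, Hist1h3e, had 14.9, 14.5, 16.2 and 53.6 CPM in ICI 1 to 4 and 79.0 CPM in isotype, below Hist1h4d and Hist1h2ap in each library but ICI 1. The gap between libraries nearly closed in the H4 gene Hist1h4i, which had 11.5, 18.7, 12.6 and 26.7 CPM in ICI 1 to 4 and 21.5 CPM in isotype.

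**Figure D1:**
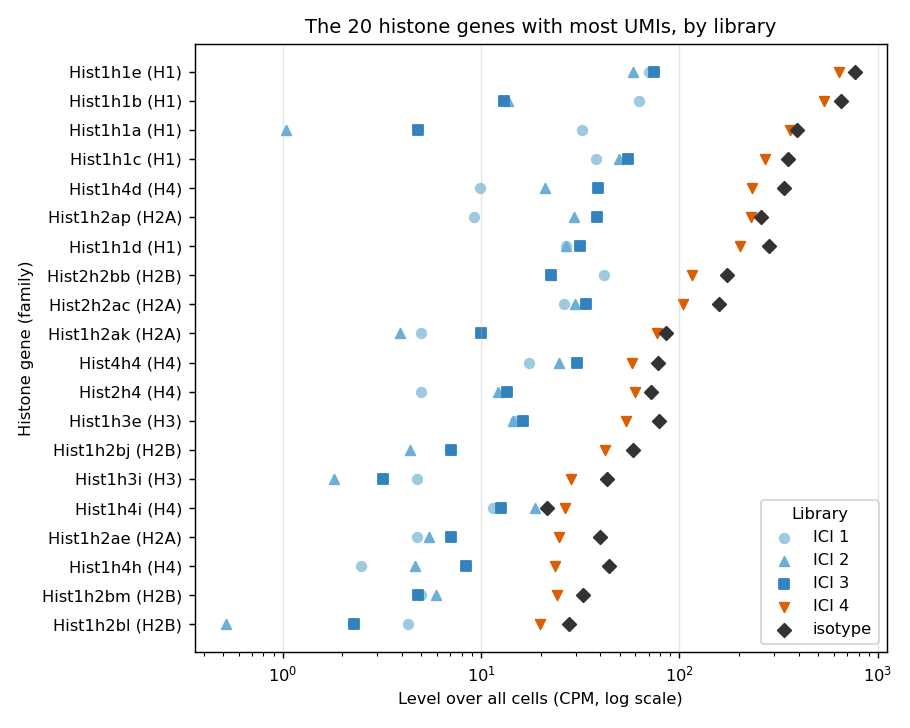
Level over all cells, in CPM on a log axis, of the 20 histone genes with most UMIs (rows, with family), one point per library. ICI 4 and isotype lie to the right of ICI 1 to 3 in each row; for Hist1h1a they stand at 361 and 392 CPM against 1.04 to 32.3 CPM, and for Hist1h4i at 26.7 and 21.5 CPM against 11.5 to 18.7 CPM.

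The first comparison asked how the histone genes followed the authors' cell cycle calls. The authors gave each cell an S and a G2M score and a phase call (G1, S or G2M); the gene lists behind the scores are not given in the sources used here. In all 10275 cells the call follows from the scores alone: the phase with the higher score, or G1 where both are below 0. The calls rest on expression in the same cells, so a gene that moves with proliferation was bound to differ between them. Histone UMIs made up 0.0272%, 0.0306%, 0.0333%, 0.0874% and 0.117% of all UMIs in the G1 cells of ICI 1 to 4 and isotype. In S cells the shares were 0.0632%, 0.0359%, 0.0609%, 0.639% and 0.689%. In G2M cells they were 0.114%, 0.0924%, 0.0836%, 0.727% and 0.938%.

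In every library the order was thus G1, then S, then G2M. The S share was 2.32, 1.17, 1.83, 7.30 and 5.91 times the G1 share in ICI 1 to 4 and isotype, and the G2M share was 4.20, 3.02, 2.51, 8.31 and 8.04 times it. G2M exceeded S by less, 1.81, 2.58, 1.37, 1.14 and 1.36 times.

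**Figure D2:**
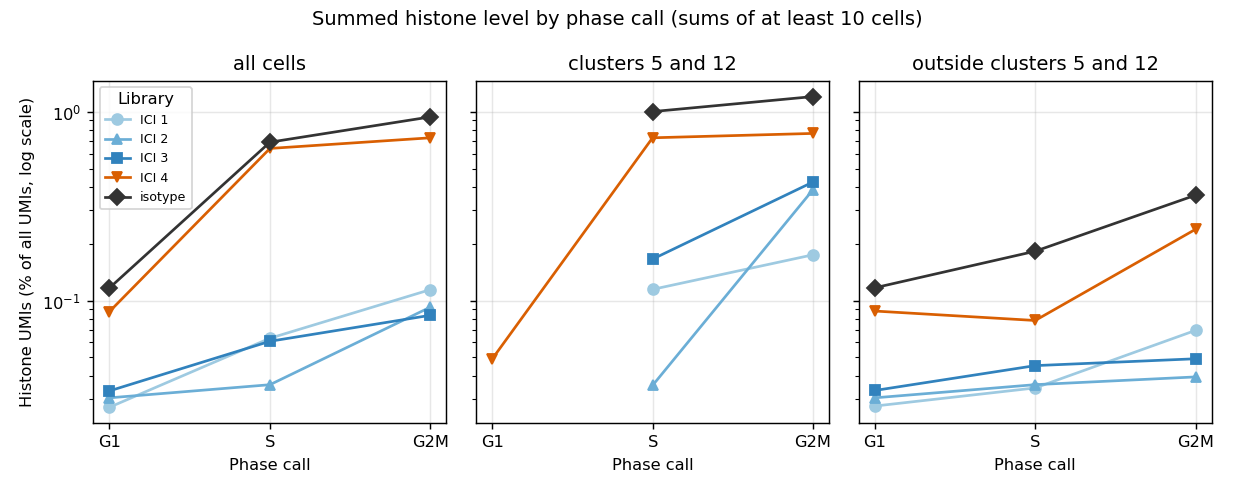
Histone UMIs as a percent of all UMIs (log axis) by phase call, one line per library, in all cells, in clusters 5 and 12, and outside them; sums of fewer than 10 cells are not drawn. In all cells each line goes up from G1 to G2M, in ICI 4 from 0.0874% to 0.727% and in ICI 2 from 0.0306% to 0.0924%; outside clusters 5 and 12 the lines are flatter, and ICI 4 is lower in S than in G1.

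Counts were summed per library and phase and tested with edgeR's quasi-likelihood test, with the library as a block and Benjamini-Hochberg adjustment over all genes tested. Of the 63 histone genes, 34 passed the filter on low counts. A gene that passed it only through the phase in which it is high had to differ, so the counts describe those 34 and are no support for all 63. Between S and G1, 26 of the 34 were higher in S and 0 lower at an adjusted p under 0.05; over all genes 10.6% were higher and 10.5% lower. The median log2 fold change of the 34 was 2.10, and that of all 10487 genes tested was -0.082. The 11 genes with at least 10 UMIs in the G1 cells of every library, which passed the filter through G1 as well, had a smaller median of 1.27 with 7 called. Between G2M and G1, 30 of 34 were higher and 0 lower, where 9.72% of all genes were higher, with a median of 2.55 against -0.064 over all genes. With no filter 42 and 46 of the 63 were called higher, beside 5.8% and 5.11% of all genes. Among the 56 genes with at least 20 UMIs, 16 had a higher level in S than in G1 in all 5 libraries (11.7% of all genes with as many UMIs) and 28 a higher level in G2M than in G1 (10.9%).

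Between S and G2M no histone gene was called by edgeR, while 0.0572% of all genes were higher in S and 0.534% lower. An unadjusted p under 0.05 was found for 6 of the 34 tested, beside 1029 of all 10487 genes. Of the 34 tested genes, 32 had a negative log2 fold change, that is, a lower level in S than in G2M, with a median of -0.62 against -0.0021 over all genes. DESeq2 called 1 histone gene here, Hist1h1c, at -0.67 (SE 0.17, adjusted p = 0.0131), beside 28 higher and 110 lower over all genes. The list of S phase genes (replication enzymes such as Mcm and Rrm genes) leaned the other way, with 23 of 24 positive and a median of 0.63, and the list of mitosis genes had 0 of 20 positive and a median of -1.89. These lists resemble those on which such calls are made, so their own direction is fixed by the calls.

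Among the tested linker genes the log2 fold changes between S and G1 ran from 0.36 to 5.49. Hist1h1a was detected at 2.24, 0.502, 0.921, 15.2 and 19.2 CPM in the G1 cells of ICI 1 to 4 and isotype. In S cells it stood at 71.4, 1.59, 9.97, 884 and 885 CPM, and in G2M cells at 95.8, 1.65, 4.97, 787 and 814 CPM. S was above G1 in each of the 5 libraries and the groups did not separate over libraries, since S in ICI 2 was below G1 in ICI 4. The log2 fold change between S and G1 was 5.49 (SE 0.31, adjusted p = 4.79e-07, edgeR), the largest of the 34. Only 2 of the 5 libraries held at least 10 of its UMIs in G1 cells. Hist1h1a thus passed the filter mainly through S and G2M, where it is high, and had to differ. Hist1h1a has no 60-base stretch in common with another annotated gene in the annotation.

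Hist1h1b behaved alike at a higher level. It had 14.9, 3.01, 4.15, 25.6 and 70.5 CPM in G1 cells, 106, 7.95, 16.2, 1212 and 1306 CPM in S cells and 214, 60.9, 36.4, 1281 and 1449 CPM in G2M cells. Its log2 fold change was 3.77 between S and G1 (SE 0.51, adjusted p = 0.000319, edgeR) and 4.44 between G2M and G1. Hist1h1d and Hist1h1e rose by less, 1.49 (SE 0.32) and 1.07 (SE 0.31), and both were well detected in G1 cells: Hist1h1e had 48.6 to 304 CPM there.

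Hist1h1c was the linker gene least tied to the calls. It had 32.1, 42.6, 51.1, 187 and 244 CPM in G1 cells, 36.1, 43.7, 52.3, 329 and 374 CPM in S cells and 77.0, 84.0, 77.8, 468 and 617 CPM in G2M cells. S exceeded G1 in all 5 libraries, but by 0.36 on the log2 scale (SE 0.15, adjusted p = 0.101, edgeR), which did not pass the threshold. In G2M it rose by 1.04 (SE 0.15, adjusted p = 0.000553). In ICI 4 and isotype alone the S difference was 0.84 with an adjusted p of 0.00209.

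Of the H2A genes, 7 were tested and 6 were higher in S, with log2 fold changes from 1.05 to 3.95. The largest was that of Hist1h2ab at 3.95 (SE 0.68, adjusted p = 0.00173, edgeR), followed by Hist1h2ak at 3.79 (SE 0.52). At least 10 G1 UMIs were found in 1 library for Hist1h2ab and in 2 for Hist1h2ak, so both had to differ too. Hist1h2ap, the H2A gene with most UMIs, had 1.49, 9.53, 5.99, 19.9 and 35.0 CPM in G1 cells and 18.8, 5.57, 51.7, 489 and 426 CPM in S cells. S was above G1 in 4 of 5 libraries, ICI 2 being the exception, and the log2 fold change was 3.40 (SE 0.54). Hist2h2ac did not pass, at 1.05 (SE 0.36, adjusted p = 0.0566), and passed at 1.56 in G2M.

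The H2B genes held both extremes of the core histones. Hist1h2bm was detected at 0.374, 0.502, 0, 1.44 and 1.34 CPM in G1 cells, at 7.85, 5.57, 8.72, 52.0 and 54.0 CPM in S cells and at 22.9, 24.7, 11.6, 61.7 and 90.6 CPM in G2M cells. The lowest S value, 5.57 CPM, exceeded the highest G1 value, 1.44 CPM. These G1 values rest on few UMIs, 1, 1, 0 and 27 in ICI 1 to 4. Only 1 of the 5 libraries held at least 10 of its UMIs in G1 cells. Hist1h2bm thus passed the filter mainly through S and G2M, where it is high, and had to differ. The log2 fold changes were 5.04 in S (SE 0.31, adjusted p = 7.56e-07, edgeR) and 5.76 in G2M (SE 0.32). Without the library block, 1 histone gene was called in S, which was Hist1h2bm (2.35% of all genes), and 11 in G2M (3.12%).

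By contrast, Hist1h2bc and Hist3h2ba did not differ beyond their spread. Hist1h2bc had 12.7, 0.502, 1.38, 20.96 and 13.6 CPM in G1 cells and 7.06, 2.39, 1.87, 9.54 and 9.35 CPM in S cells, with a log2 fold change of -0.64 (SE 0.39, adjusted p = 0.253, edgeR). Hist3h2ba had 7.10, 6.02, 4.61, 17.2 and 18.5 CPM in G1 cells and 1.57, 10.3, 6.85, 15.7 and 14.0 CPM in S cells, with a log2 fold change of -0.16 (SE 0.28, adjusted p = 0.722). In ICI 1, ICI 4 and isotype both genes were lower in S than in G1. The sign for Hist3h2ba turned without ICI 1, to 0.11.

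All 4 tested H3 genes were called in both comparisons, with log2 fold changes in S from 1.81 for Hist2h3b to 3.17 (SE 0.36) for Hist1h3i. The H4 genes had the smallest differences of the core families, with a median of 1.40 in S over 9 tested genes, 5 of them called. Hist1h4d had 5.98, 18.1, 22.1, 66.5 and 81.4 CPM in G1 cells and 14.9, 20.7, 53.6, 385 and 437 CPM in S cells, a log2 fold change of 1.67 (SE 0.36, adjusted p = 0.00643, edgeR). Hist1h4i had 8.22, 17.6, 8.29, 26.8 and 15.8 CPM in G1 cells and 14.1, 22.3, 17.4, 25.0 and 21.3 CPM in S cells, and its 0.41 (SE 0.22, adjusted p = 0.189) did not pass. In G2M cells it had 22.9, 14.8, 14.9, 28.4 and 36.6 CPM, above G1 in each library but ICI 2.

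**Figure D3:**
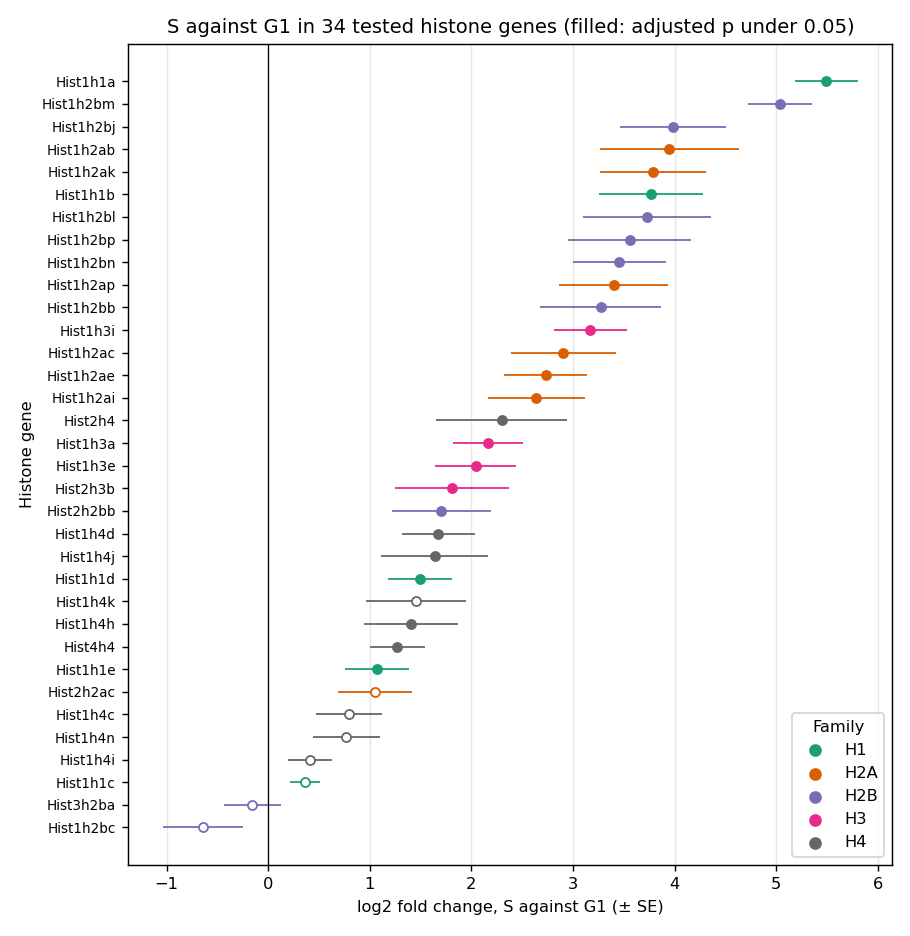
Log2 fold change between S and G1 cells (± SE, edgeR, 5 libraries with a library block) of the 34 tested histone genes, ordered by size and coloured by family; filled points passed an adjusted p of 0.05. The linker genes run from 0.36 (Hist1h1c) to 5.49 (Hist1h1a), and Hist1h2bc at -0.64 and Hist3h2ba at -0.16 lie left of 0.

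The transcript models went with these differences only in part. The 11 tested genes whose model has a poly(A) signal after the stem-loop had a median log2 fold change of 1.49 in S, with 8 called, and a range from -0.16 to 2.90. The 12 with a stem-loop and no signal after it had a median of 2.72 with 9 called, and the 11 with no stem-loop in the model a median of 3.17 with 9 called. A model may stop short of the stem-loop, so this last group is defined by annotation and its genes need not lack one. The last group holds both Hist1h1a at 5.49 and Hist1h2bc at -0.64. Histone genes are near copies of each other: 4 of the 63 share no 60-base stretch with another gene and 29 share over 50% of them. Exons of 23 overlap those of another gene in position, counted without regard to strand. Values of single core histone genes are uncertain to the extent of the shared stretches. The 12 tested genes that share over 50% of these stretches had a median of 2.90 in S with 10 called, and the other 22 a median of 1.66 with 16 called. The 7 that share under 10% had a median of 1.67 with 6 called. The part of shared sequence in these differences was not tested.

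The phase calls did not mark the same cells in all libraries, nor cells of the same depth. In ICI 4 and isotype S cells had medians of 11169 and 5782 UMIs against 3943 and 3249 in G1 cells, while in ICI 2 and ICI 3 they had 2808 and 3567 against 3000 and 3714. With each cell thinned to 1000 UMIs, 9 of the 12 genes still tested were higher in S and 11 in G2M, beside 4.22% and 4.54% of all genes. Of the S cells, 74.2% in ICI 4 and 46.7% in isotype lay in clusters 5 and 12, against 12.3%, 3.47% and 5.64% in ICI 1 to 3. Summed CPM of 10 cycling markers (Mki67, Top2a and others) was 5810 and 4371 in the S cells of ICI 4 and isotype and 2122, 266 and 506 in those of ICI 1 to 3. Thymocyte markers differed between the calls as well. The 12 listed genes summed to 968, 526, 605, 1852 and 2693 CPM in G1 cells of ICI 1 to 4 and isotype. In G2M cells they summed to 3025, 728, 831, 3327 and 3507 CPM, above G1 in each library. In S cells the sums were 1403, 760, 753, 2406 and 2692 CPM, above G1 in ICI 1 to 4 but not in isotype. In ICI 2 the S sum exceeded the G2M sum. Rag1, Rag2 and Ptcra were at 0 in every phase group of ICI 2 and ICI 3. The part of the thymocyte markers in the histone differences was not tested.

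Outside clusters 5 and 12 far fewer histone genes were called: 1 of 17 tested in S, which was Hist1h1a at 1.76 (SE 0.38, adjusted p = 0.0476, edgeR; 0.513% of all genes were higher), and 4 of 17 in G2M, which were Hist1h1a at 3.46, Hist1h1b at 2.81, Hist1h2ap at 2.18 and Hist2h2bb at 1.62 (0.791% of all genes). Inside clusters 5 and 12 no test of phase within a cluster could be had: no cell of cluster 5 was called G1, and the G1 side was 1 sum of 38 cluster 12 cells of ICI 4. The 22 and 23 of 45 genes called there, beside 4.47% and 5.47% of all genes, therefore largely set cluster 5 against cluster 12. Within ICI 1 to 3 alone, 5 of 21 were called in S (Hist1h1a, Hist1h1b, Hist1h2ap, Hist1h2bm and Hist1h4d; 2.82% of all genes) and 14 of 21 in G2M (3.35%). Within ICI 4 and isotype, 46 and 47 of 53 were called, beside 21.8% of all genes in each. Leaving out isotype gave 15 and 19 called genes and leaving out ICI 4 gave 17 and 24, with 29 tested. Over all genes 431 and 460 of 10343 were higher without isotype, and 487 and 494 of 10293 without ICI 4.

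The second comparison described the histone genes over the authors' 17 clusters. Clusters were made from expression in the same cells, so the differences are descriptions. Cluster 5 stood first in every library with at least 20 of its cells: histone UMIs made up 0.153% in ICI 1, 0.286% in ICI 3, 0.828% in ICI 4 and 1.18% in isotype. Cluster 12 followed in ICI 4 with 0.385% and in isotype with 0.711%, but had 0.0560% in ICI 1. Cluster 11 came next, with 0.130% in ICI 1, 0.277% in ICI 4 and 0.335% in isotype.

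Cluster 5 was cycling-like: 10 of 10 cycling markers were at least 1.5 times their level elsewhere and 4 were among its top 10 genes by fold, together with Hist1h1a and Hist1h1b themselves. Of its cells 54.5% were called S and 45.5% G2M. Cluster 5 also held 9 of 12 thymocyte markers at 1.5-fold, none of them among its top 10 genes. The 12 summed there to 3346 and 3479 CPM in ICI 4 and isotype, against 1484 and 1911 CPM in clusters other than 2, 5, 11 and 12. Whether they bear on its histone share was not tested. Cluster 12 was led by Nrgn, Tnfrsf9 and Tk1 and had 8 of 10 cycling markers at 1.5-fold. Cluster 11 held 10 of 12 thymocyte markers at 1.5-fold, none of them among its top 10 genes, and 10.95% of its cells were called S and 8.93% G2M. All other clusters had lower histone shares in ICI 4, from 0.0532% in the macrophage-like cluster 7 to 0.139% in cluster 2. Isotype lay above ICI 4 in 10 of the 14 clusters with enough cells in both, and the largest ratio was in cluster 7, at 0.183% against 0.0532%, where cycling markers summed to 1215 CPM in isotype and 300 CPM in ICI 4 and thymocyte markers to 2395 and 796 CPM; their part was not tested. Of the 129 isotype cells in cluster 7, 1 held 46.7% of the Hist1h1a UMIs and 1 held 22.0% of the Hist1h1b UMIs. The summed share did not rest on so few cells. A histone UMI was found in 91.5% of these isotype cells and in 75.6% of the ICI 4 cells of the cluster. With each cell thinned to the same depth, 54.3% and 26.7% had one, and the histone shares were 0.119% and 0.0333%. ICI 1, ICI 2 and ICI 3 lay below ICI 4 in 13 of 13, 10 of 10 and 11 of 11 clusters.

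**Figure D4:**
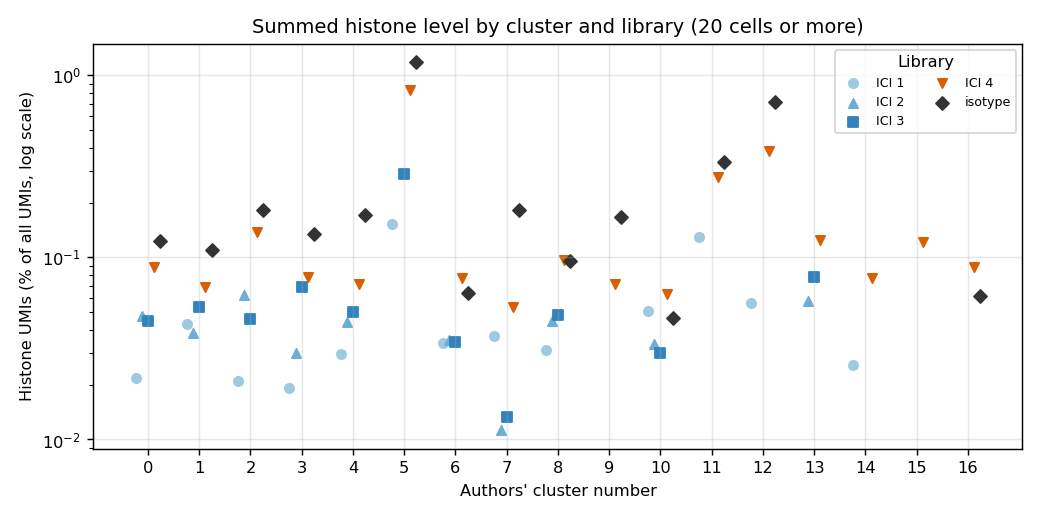
Histone UMIs as a percent of all UMIs (log axis) in each of the authors' 17 clusters, one point per library with at least 20 cells in the cluster. Cluster 5 is highest in each library that has it, from 0.153% in ICI 1 to 1.18% in isotype, and ICI 1 to 3 lie below ICI 4 in each cluster they share with it.

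Single histone genes differed in which cluster held most. Hist1h1a had 1098 CPM in cluster 5 of ICI 4 and 1335 CPM in that of isotype, 70.1 and 61.6 times the median of the clusters other than 5 and 12. For Hist1h1b the same ratios were 68.6 and 49.6, and for Hist1h2bm 113 and 165. These genes were low elsewhere; Hist1h2bm had a median of 0.619 CPM outside clusters 5 and 12 in ICI 4. Hist1h1e was found everywhere, with 1384 CPM in cluster 5 of ICI 4 and a median of 237 CPM outside, a ratio of 5.85.

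Hist1h1c was highest in cluster 11 in ICI 4, at 682 CPM against 456 CPM in cluster 5, and nearly equal in both in isotype, at 640 and 653 CPM. Hist3h2ba was also highest in cluster 11, with 150 CPM in ICI 4 and 101 CPM in isotype, against 22.0 and 19.0 CPM in cluster 5 and medians of 10.1 and 11.9 CPM outside clusters 5 and 12. In that cluster the thymocyte markers summed to 7849 and 9480 CPM in ICI 4 and isotype with none of the 12 at 0, against 1484 and 1911 CPM in clusters other than 2, 5, 11 and 12; whether they bear on Hist3h2ba was not tested. Hist1h2bc had its highest value in ICI 4 in cluster 10, an innate lymphoid type 2-like cluster, at 79.9 CPM, and in ICI 1 in the same cluster, at 75.9 CPM (21 UMIs in 19 cells). In isotype its highest value was 29.98 CPM in cluster 8, a natural killer-like cluster, from 11 UMIs of which 1 cell held 54.5%, and cluster 10 had 17.96 CPM from 7 UMIs. Hist1h4i ranged from 5.76 to 58.9 CPM over the clusters of ICI 4 and from 4.52 to 40.9 CPM over those of isotype.

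**Figure D5:**
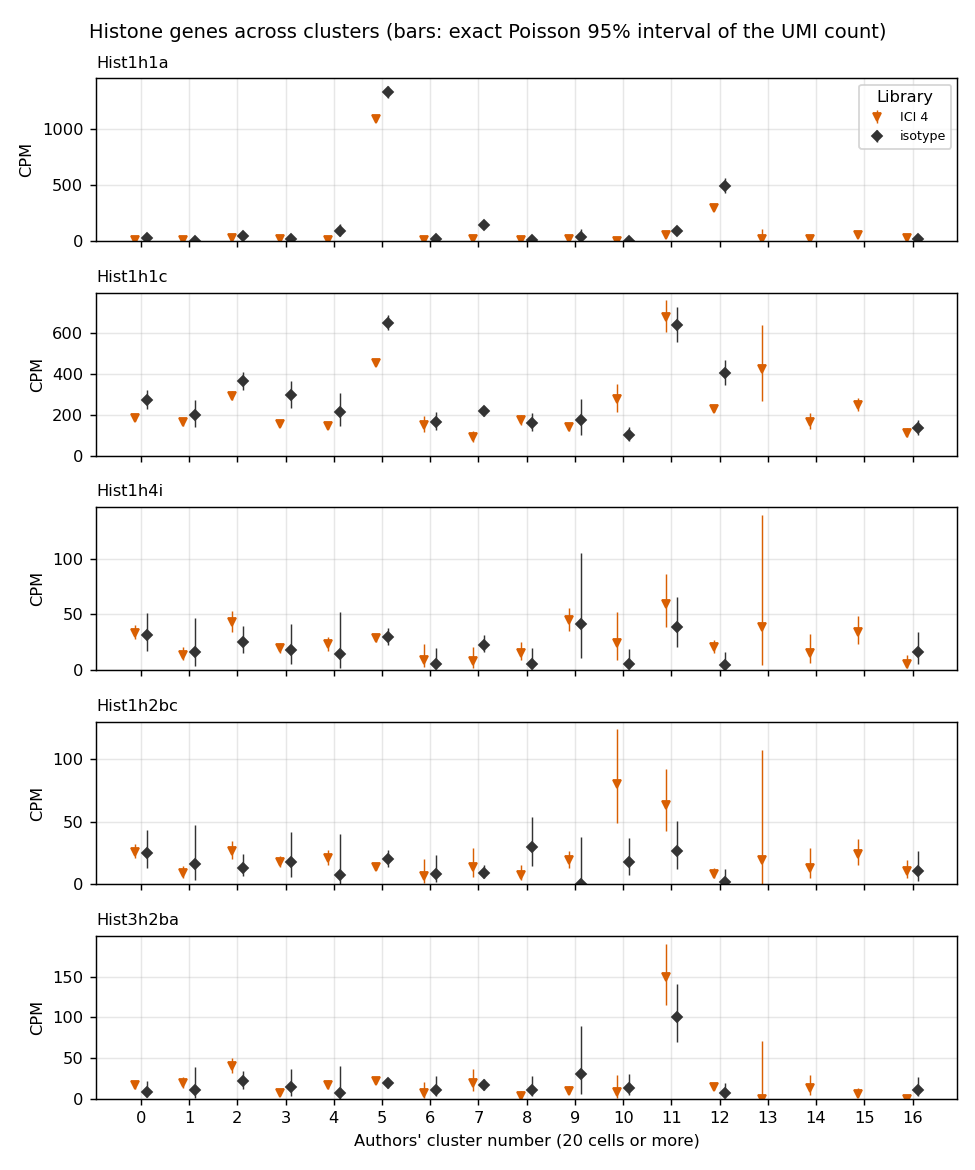
CPM of 5 histone genes in the authors' clusters in ICI 4 and isotype, for clusters with at least 20 cells; bars are exact Poisson 95% intervals of the UMI count and cover counting error only. Hist1h1a is highest in clusters 5 and 12, Hist3h2ba peaks in cluster 11 at 150 and 101 CPM, and Hist1h2bc and Hist1h4i show no shared peak in cluster 5.

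The third comparison set ICI against isotype. With 4 libraries against 1, the single control is taken to have the same spread as the treated ones, and a p-value speaks only of variation between pooled libraries. In all cells 50 histone genes were tested and none was called by edgeR's quasi-likelihood test, as was the case for all genes (0% lower and 0% higher); none had an unadjusted p under 0.05 and DESeq2 called none. With clusters 2, 5, 11 and 12 left out, 35 were tested and again none was called. Their median log2 fold change was -1.28, against 0.029 over all genes. Of the 50, 48 had a negative log2 fold change, with a median of -1.77 against 0.015 over all genes. The linker gene Hist1h1e had 70.6, 58.6, 74.4 and 638 CPM (210 ± 285, SD, n = 4) against 771 CPM, a log2 fold change of -1.90 (SE 1.40, adjusted p = 0.817, edgeR). ICI 4 stood close to isotype while the other libraries were far below.

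In S cells 43 genes were tested and 0 called (0.0373% of all genes were lower), none with an unadjusted p under 0.05, and the median was -1.65 against 0.041 over all genes. In cluster 5, without ICI 2, which had 18 cells there, 48 were tested and 0 called (0.0316% of all genes were lower). Of the 48, 46 were negative, and the median was -1.29 against 0.015 over all genes. DESeq2 called none in either. The S phase genes had 0 of 24 positive values in all cells and in S cells, with medians of -0.55 and -0.65, and 17 of 24 in cluster 5, with a median of 0.08. The mitosis genes had 0, 0 and 3 of 20 positive values in all cells, S cells and cluster 5, with medians of -1.19, -1.03 and -0.29. Without ICI 4, edgeR called 12, 15 and 14 histone genes lower in all cells, S cells and cluster 5, beside 1.29%, 1.63% and 1.02% of all genes, and the medians of the tested histone genes moved to -2.75, -3.43 and -2.32. The 12 included Hist1h1e at -3.63, Hist1h1d at -3.45 and Hist1h1c at -3.02. The ICI libraries left in that comparison are the 3 that stand apart in gene listing and Ptprc detection, so treatment and library set cannot be told apart in it.

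ICI 4 and isotype, which resembled each other in those respects, can be compared only as 1 library against 1 and without a test. Of the 61 genes with UMIs in both, 52 were lower in ICI 4, with a median log2 ratio of -0.47, against 0.03 over all genes with at least 20 UMIs. The makeup of the libraries differed too: cluster 11 held 155 of the 5018 cells of ICI 4 and 168 of the 1352 of isotype, 11.4% and 16.9% of cells were called S and 7.21% and 10.4% G2M, and in G1 cells the thymocyte markers summed to 1852 and 2693 CPM and the macrophage markers to 376 and 4639 CPM. The part of this makeup in the histone difference was not tested. Hist1h1a differed little, at 361 and 392 CPM, and Hist1h4h more, at 23.7 and 44.2 CPM. Hist1h4i, Hist1h2bc and Hist3h2ba were higher in ICI 4, with log2 ratios of 0.31, 0.22 and 0.03. Over all 4 ICI libraries, 45 of the 56 genes with at least 20 UMIs were below isotype in each, beside 20.2% of all genes with as many UMIs. In these sums over all cells a smaller number of cycling cells and less histone mRNA per cell cannot be told apart.

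Other genes of the histone pathway were called between phases as well; whether their lists differ from the clustered genes was not tested. Of 14 listed replacement histones, 10 were tested between S and G1, with 5 higher and 1 lower and a median of 0.61. Over all genes 10.6% were higher and 10.5% lower. H3f3b and H3f3a, which encode the replacement histone H3.3 and had 147891 and 78380 UMIs, did not pass, at 0.13 (SE 0.10) and 0.31 (SE 0.15). H2afz, which encodes H2A.Z, rose by 1.20 (SE 0.32, adjusted p = 0.0187, edgeR), and H2afv, its close relative, by 1.11 (SE 0.22). H1f0, the linker histone of resting cells, fell by 0.61 (SE 0.16, adjusted p = 0.0204). H3f3b alone thus had nearly as many UMIs as all 63 clustered genes together. This compares captured polyA RNA, in which mRNAs that end in a stem-loop may be missing.

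Of 23 listed genes of histone mRNA transcription and processing, 21 were tested and 11 were higher in S, 9 in G2M and none lower, with medians of 0.56 and 0.54. Over all genes 10.6% were higher in S and 9.72% in G2M. Slbp, which binds the stem-loop, rose by 2.33 in S (SE 0.23, adjusted p = 3.09e-05, edgeR) and by 1.71 in G2M. Casp8ap2, a component of the bodies in which these mRNAs are made, rose by 1.33 (SE 0.13), and Eri1, an exonuclease that trims the stem-loop end, by 0.95 (SE 0.20). Npat, the coactivator of clustered histone transcription, did not pass, at 0.56 (SE 0.22, adjusted p = 0.0926), and neither did Snrpb at 0.60 (SE 0.20). Slbp and Casp8ap2, like Nasp and Chaf1b among the chaperones, are commonly used for S scores. Whether they or other listed genes entered the S or G2M scores is not given in the sources used here.

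Of 23 chaperones and deposition factors, all were tested and 16 were higher in S, 14 in G2M, and 1 was lower in G2M, with a median of 0.94 in S. Over all genes 10.6% were higher in S and 9.72% in G2M, and 10.7% were lower in G2M. Chaf1a and Chaf1b, subunits of the complex that deposits new H3 and H4 on replicated DNA, rose by 3.45 (SE 0.35) and 3.02 (SE 0.17), and Asf1b, which hands H3 and H4 to it, by 3.74 (SE 0.48). Nasp, a chaperone of soluble H3 and H4, rose by 2.42 (SE 0.17). The abundant members Npm1, Anp32e, Rbbp4 and Nap1l1 rose by 0.66 (SE 0.19), 1.27 (SE 0.26), 0.90 (SE 0.17) and 1.11 (SE 0.27). Hira, Daxx and Atrx, which serve the replacement histone H3.3, did not pass in S, at 0.70, -0.15 and 0.17. In G2M Daxx was the 1 gene called lower, at -0.36 (SE 0.12, adjusted p = 0.0495). Chaf1b was the 1 gene of the list higher in S than in G2M, at 1.08 (SE 0.17, adjusted p = 0.0106).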

How the data were processed

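UMI counts of 18767 genes in 10275 cells were used as deposited by the authors. Per the submitters' processing notes, Cell Ranger, Seurat and mm10 were used. The deposited cell table gives, per the file headers, each cell's library, mitochondrial percent (highest 25.0), S and G2M score, phase and cluster (resolution 0.4). Members and lists were chosen with earlier results of these data known. Counts were summed per library, phase or cluster (at least 20 cells). Tests used the quasi-likelihood method of edgeR 4.0.16 after TMM normalization and filterByExpr (minimum count 10), with Benjamini-Hochberg adjustment at 0.05; the script was tested on simulated data. Phase fits held the library as a block, since same-numbered sums come from the same library. Named members were the 12 with most UMIs, the most abundant of each family and gene cluster, the 10 largest called changes per phase comparison, and 8 known for polyadenylated or replication-independent transcripts; Hist1h4h, Hist1h3i and Hist2h3b were added after their values were seen. Alternatives were DESeq2 1.42.0, scaling by RLE, all genes kept, each library left out, ICI 1 to 3 summed, thinning to 1000 UMIs (617 cells left out), shared barcodes removed, no block, clusters 5 and 12 alone or left out, clusters 2, 5, 11 and 12 left out, and each gene's highest cell left out. Analyses within ICI 1 to 3 and within ICI 4 with isotype were added after seeing the data. Doublets were not called. Shares and Poisson intervals cover counting error only.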

Additional observations from a re-analysis of the deposited data

Results flagged for a closer look

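In 14 of 16 values checked over the 4 ICI libraries, ICI 4 lay so far above the other ICI libraries that its gap to the nearest took up nearly the whole range; chance marks about 1 in 20 such groups, and the values share their cells. The summed histone share was 0.334% in ICI 4 over all cells, 0.0874% in G1, 0.639% in S and 0.727% in G2M cells. The single genes were Hist1h1e at 638 CPM, Hist1h1b at 534, Hist1h1a at 361, Hist1h1c at 271, Hist1h4d at 234, Hist1h2ap at 230, Hist1h1d at 203, Hist2h2ac at 104, Hist1h2ak at 77.5 and Hist2h4 at 59.9 CPM. In each of them the isotype library was higher still.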

How the results depend on the processing

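Between S and G1, where 26 histone genes were called, the count was 42 with all genes kept, 40 with ICI 1 to 3 summed, 9 with cells thinned to 1000 UMIs (12 genes left to test), 46 in ICI 4 and isotype, 5 in ICI 1 to 3 and 1 outside clusters 5 and 12. Between G2M and G1, where 30 were called, the same settings gave 46, 44, 11, 47, 14 and 4. The histone genes tested numbered 34 in the main fit and 63, 52, 12, 53, 21 and 17 in these settings. With ICI 1 to 3 summed, 1362 and 1286 of all 11867 genes were higher in S and in G2M. Shares over all genes for the other settings are given above. Without the library block that pairs the phases of a library, 1 and 11 were called. Between S and G2M, where none was called, DESeq2, clusters 5 and 12 alone and ICI 1 to 3 alone each gave 1. Of all 10487, 9449 and 9810 genes tested there, 28, 100 and 25 were higher in S and 110, 157 and 69 lower. Leaving out 1 library at a time gave 15 to 35 called genes for S against G1, 19 to 41 for G2M against G1 and 0 for S against G2M. Over all genes, of 10293 to 10619 tested, 431 to 1144 were then higher in S and 460 to 1087 in G2M. For ICI against isotype, leaving out 1 library gave 0 to 12 in all cells, 0 to 15 in S cells and 0 to 14 in cluster 5, the higher counts all without ICI 4. The cause of these shifts was not tested.

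Of 372 values for 24 single genes between S and G1, 308 kept direction and call, 50 lost the call, 10 gained it and 4 changed sign. Between G2M and G1 these numbers were 335, 30, 1 and 6. Hist1h1c in S was -0.056 outside clusters 5 and 12. Hist3h2ba in S ranged from -0.35 to 0.11 without 1 library and was 2.18 within clusters 5 and 12, whose G1 side is 1 sum of cluster 12 cells and where Hist1h2bc was 0.41. In G2M Hist2h4 was -0.11 in ICI 1 to 3. Hist1h2bc in G2M was -0.10 by DESeq2, -0.029 with all genes kept, -0.034 without the cell in which a gene was highest, and -0.51 to 0.29 without 1 library.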

Other observations

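Within cluster 5 the cells of a library can be ordered from the most S-like to the most G2M-like by the difference of the authors' scores and divided into 6 groups of equal size. The histone share of UMIs in ICI 4 was 0.474% in the most S-like group, 0.763%, 1.16%, 0.834% and 0.839% in the next, and 0.830% in the most G2M-like group (91 cells each). In isotype (25 or 26 cells each) it was 0.664%, 1.34%, 1.18%, 1.20%, 1.12% and 1.51%. The lowest share stood in the most S-like group in both libraries. Hist1h1a had its lowest value, 592 CPM, in that group of ICI 4 and its highest, 1764 CPM, in the third; in isotype its lowest value, 980 CPM, stood in the fifth group and its highest, 2014 CPM, in the second, so the libraries did not share this pattern. Hist1h1c had 268 CPM in the first group and 610 CPM in the last in ICI 4, and 278 and 1321 CPM in isotype. The scores come from the same cells, and no test was made.

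Across the 17 clusters, all libraries summed, the genes whose level was most like that of the summed histone genes were Dtl (Pearson's r of 0.948 on log2(CPM + 10)), Fam83d (0.946), Khsrp (0.935), Ezh2 (0.932), Anp32e (0.928), Srsf2 (0.921), Nasp (0.920), Srsf3 (0.919), Cdca7 (0.919) and Ube2s (0.918), of 6821 genes ranked. Clusters share libraries and depth, so the values are descriptions.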
